A study of Caenorhabditis elegans with 12 samples.

Results

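The glutathione S-transferase genes of Caenorhabditis elegans were followed across both strains and both treatments of an RNA sequencing experiment on whole first-stage (L1) larvae. Members were all protein-coding genes of the table named gst-, gstk- or gsto- followed by a number, which gave 49 of 19664 protein-coding genes. The mutant strain carried the n771 allele of lin-52 on chromosome III. LIN-52 is part of the MuvB core of DREAM, which represses genes by binding their promoters. N2 was the wild type. Synchronised larvae of both strains were fed E. coli for 3 h, given UV-B at 60 mJ/cm2 or a mock treatment, and collected 6 h later. The 4 groups were lin-52 UV, N2 UV, lin-52 mock and N2 mock, with 3 libraries each, described as biological triplicates. Only 1 mutant strain was used, so effects of n771 and of other differences between the strains cannot be told apart.

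Glutathione S-transferases join the tripeptide glutathione to electrophilic compounds, among them products of lipid peroxidation and many foreign chemicals, which makes these compounds more soluble and ready for export. The gst genes encode cytosolic enzymes, the gstk genes belong to the kappa class and the gsto genes to the omega class, whose members act more as thiol transferases. In this worm the family is large, many of its genes lie side by side, and several are known targets of SKN-1, the worm counterpart of the mammalian Nrf factors that respond to oxidative and xenobiotic stress.

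The deposited values were FPKM (fragments per kilobase of transcript, scaled to the number of mapped fragments), summing to between 1243647 and 1398489 per library, with 12475 to 12973 protein-coding genes at 1 FPKM or more. Judged by the steps between low values, relative sequencing depth ran between 0.938 and 1.282 (N2 mock 1 set to 1). All levels below are FPKM after scaling for library composition, and log2 fold changes with their SE are on the log2(FPKM + 0.5) scale. A gene was called higher or lower at a limma adjusted p below 0.05, with adjustment over all 12913 tested genes. The transcript of lin-52 was at 10.5 to 11.7 FPKM in lin-52 UV and 32.9 to 35.8 FPKM in N2 UV, and at 6.94 to 7.58 FPKM in lin-52 mock and 20.4 to 27.6 FPKM in N2 mock. The kind of mutation was not used here, so this level separates the strains but does not check the genotype. Of 15 tested intestinal markers 6 were higher and 6 lower after UV in lin-52, and 5 higher and 4 lower in N2. The summed level of the 16 listed was carried by asp-1 (52.2% to 56.8%), act-5 was listed at 0 in every library, and vha-6 was listed at 0 in N2 UV 1 but at 296 FPKM or more in the other 11 libraries. Without asp-1 and vha-6 the other 14 summed to 2335 to 2452 FPKM in lin-52 UV and 2435 to 2517 FPKM in N2 UV, and to 2374 to 2452 FPKM in lin-52 mock and 2328 to 2455 FPKM in N2 mock. The pharyngeal gene myo-1 was likewise listed at 0 in 7 libraries and at 234 FPKM or more in the others, so a listed 0 can be a failed estimate, while 0 of the 49 members combined a 0 in one library with more than 5 FPKM in another. The 12 germline markers summed to 238 to 264 FPKM in lin-52 UV and 65.0 to 69.0 FPKM in N2 UV, and to 227 to 242 FPKM in lin-52 mock and 56.8 to 57.6 FPKM in N2 mock. The largest means in lin-52 mock were those of hrde-1 (89.25 FPKM, 13.38 in N2 mock) and glh-1 (48.39, 12.06 in N2 mock). Means of gld-1 (3.51 and 3.39 FPKM) and cpb-3 (1.30 and 1.19 FPKM) hardly differed, and nos-2 was at 0.196 and 0.322 FPKM. Called higher in lin-52 were 7 of 11 tested markers with mock treatment and 8 after UV, against 3.59% and 13% of all tested genes. The 10 body wall muscle markers summed to 3340 to 3513 FPKM in lin-52 UV and 3142 to 3326 FPKM in N2 UV, and to 4159 to 4407 FPKM in lin-52 mock and 4679 to 4783 FPKM in N2 mock. The 12 hypodermis and seam markers summed to 1484 to 1653 FPKM in lin-52 UV and 1270 to 1438 FPKM in N2 UV, and to 1922 to 1986 FPKM in lin-52 mock and 1984 to 2166.3 FPKM in N2 mock. Most of that sum was col-10, at 1277 to 1416 FPKM in lin-52 UV and 1079 to 1232 FPKM in N2 UV. In mock libraries col-10 was at 1573 to 1625 FPKM in lin-52 and 1620 to 1825 FPKM in N2. The 11 neuronal markers summed to 574 to 626 FPKM in lin-52 UV and 630 to 650 FPKM in N2 UV, and to 744 to 775 FPKM in lin-52 mock and 793 to 818 FPKM in N2 mock. The sums of muscle, neuronal, and hypodermis and seam markers were thus lower after UV in both strains, the sum of germline markers was higher in lin-52, and the part of these differences in the results on glutathione S-transferase genes was not tested. In RNA from whole larvae, fewer cells of a type, less RNA per cell and changes of single marker genes cannot be told apart.

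Levels of the family covered a wide range. Averaged over the 12 libraries, 8 members stood at 100 FPKM or more, 17 between 10 and 100 FPKM and 19 between 1 and 10 FPKM. The remaining 5 members, gst-8, gst-17, gst-18, gst-25 and gsto-2, were under 1 FPKM and were not tested, which left 44. In single libraries these 5 genes reached at most 1.70 FPKM, a value of gst-25 in lin-52 UV 2, and gst-25 missed the limit only narrowly with a mean of 0.999 FPKM. The models of gst-17 and gst-18 share 351 exon bases on the same strand, so that their values are uncertain. A value of 0 was listed for 3 members, gst-17, gst-18 and gst-37.

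The 5 members with the highest mean were gst-1, gst-24, gst-5, gst-20 and gst-7, and together they took 53.2% to 54.1% of the summed FPKM of all 49 members in lin-52 UV, 54.8% to 56.0% in N2 UV, 42.5% to 43.8% in lin-52 mock and 42.5% to 42.9% in N2 mock. The most abundant, gst-1 (chrIII:9059331-9060181, WBcel235), stood at 277, 311 and 294 FPKM in lin-52 UV, 257, 262 and 254 FPKM in N2 UV, 331, 306 and 327 FPKM in lin-52 mock, and 343, 326 and 324 FPKM in N2 mock. The levels of gst-1 were thus lowest in N2 UV, and each of its 12 values was above 250.

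**Figure D1:**
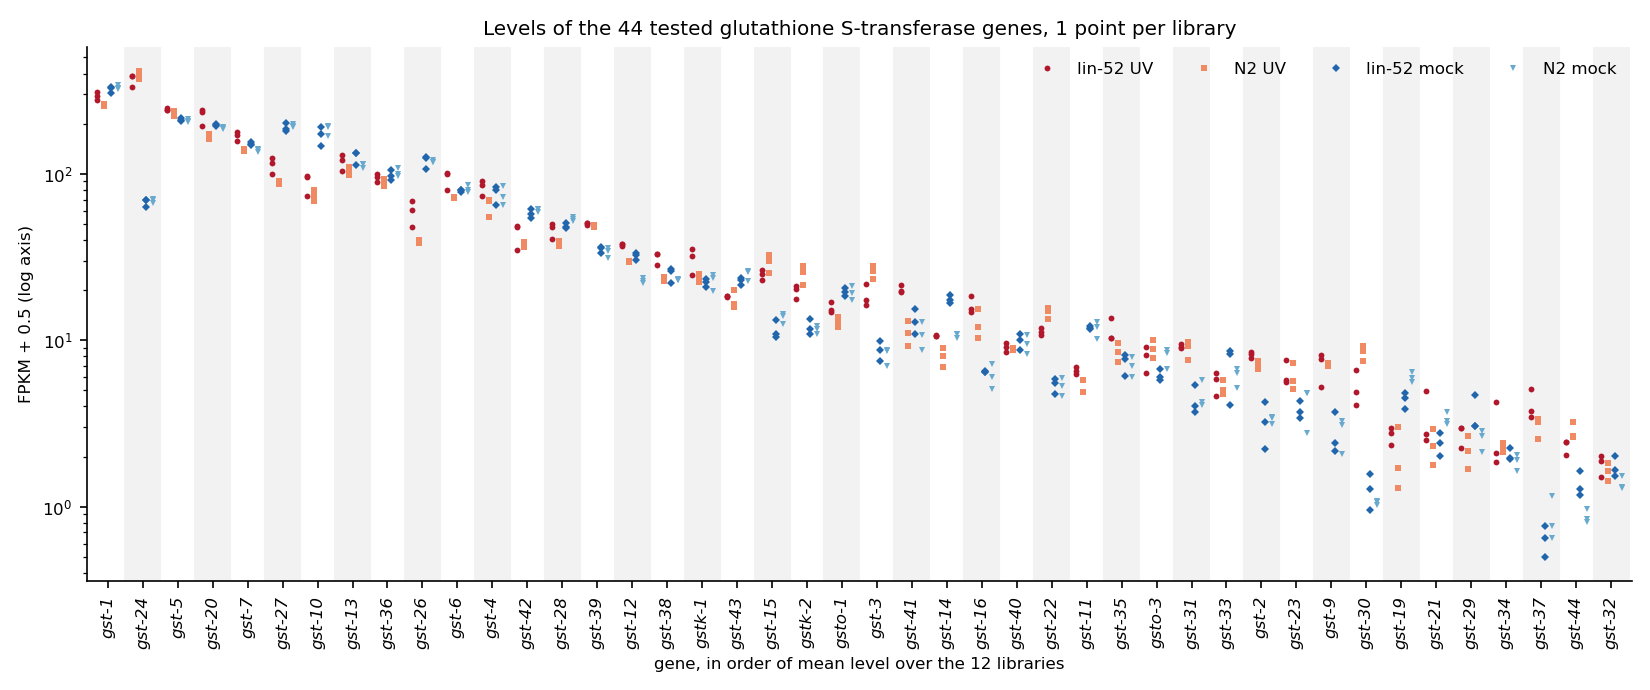
FPKM plus 0.5 on a log axis for the 44 tested glutathione S-transferase genes, ordered by mean level, with 1 point per library and the 4 groups in different colours and symbols. The genes run from gst-1, at 254 FPKM or more in every library, down to members near 1 FPKM, and gst-24 stands out with UV libraries at 333 FPKM or more and mock libraries at 70.3 FPKM or less.

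After UV, members were called in both directions in each strain, as were all tested genes. In lin-52 larvae 23 of 44 were higher after UV and 10 lower, against 33.1% and 33.5% of all tested genes. In N2 larvae 16 of 44 were higher and 14 lower, against 36.6% and 37% of all tested genes (limma, adjusted p below 0.05). Both directions together made 75% of members in lin-52, against 66.6% of all tested genes, and 68.2% in N2, against 73.6%. UV and mock libraries did not overlap for 70.5% of members in lin-52 and 72.7% in N2. The shares of all tested genes were 70.2% and 76.6%, so groups without overlap after UV were not particular to the members named below. The median log2 fold change of the 44 genes was 0.23 in lin-52 and 0.03 in N2, beside 0.00 over all tested genes in each strain. The comparisons within lin-52 and within N2 share no libraries, but the spread of each gene was estimated from all groups together. Each gene therefore had the same SE in both comparisons, and the calls in the strains were not independent of each other. In both strains 16 members (36.4%) were called higher and 10 (22.7%) lower, against 29.8% and 30.6% of all tested genes. A further 9 members (20.5%) were called in neither strain, the same share as of all tested genes, and 9 (20.5%) had calls that differed between the strains, against 19.1%.

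The largest absolute change of level was that of gst-24 (chrII:13610443-13611366). It was at 333, 385 and 386 FPKM in lin-52 UV and 69.3, 63.0 and 69.5 FPKM in lin-52 mock. In N2 it was at 370, 413 and 400 FPKM after UV and 70.3, 68.8 and 65.8 FPKM after mock treatment. No UV library came near any mock library, and the log2 fold change was 2.44 ± 0.06 in lin-52 and 2.52 ± 0.06 in N2 (limma adjusted p = 1.11e-10 and 4.61e-11). The difference between the strains in this response was -0.08, with a 95% interval of -0.28 to 0.12 on the log2 scale. With gst-24 set aside, the other 48 members summed to 1905 to 2143 FPKM in lin-52 UV and 1725 to 1778 FPKM in N2 UV, and to 2056 to 2201 FPKM in lin-52 mock and 2082 to 2158 FPKM in N2 mock. With it, the 49 members summed to 2238 to 2528 FPKM in lin-52 UV and 2138 to 2167 FPKM in N2 UV, and to 2119 to 2270 FPKM in lin-52 mock and 2147 to 2228 FPKM in N2 mock.

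Several members that were near silent without UV also rose. gst-30 was at 6.12, 3.58 and 4.38 FPKM in lin-52 UV and 0.783, 0.457 and 1.06 FPKM in lin-52 mock, a log2 fold change of 2.03 ± 0.20 (limma adjusted p = 3.58e-06). In N2 the gene gst-30 was at 8.09, 8.80 and 7.03 FPKM after UV and 0.569, 0.580 and 0.518 FPKM after mock treatment, a log2 fold change of 3.00 ± 0.20 (limma adjusted p = 8.23e-08). Every UV library of either strain was above every mock library. gst-37 was at 4.597, 2.98 and 3.24 FPKM in lin-52 UV and at 0.151, 0.264 and 0 FPKM in lin-52 mock. In N2, gst-37 was at 2.71, 2.88 and 2.03 FPKM after UV and 0.658, 0.269 and 0.150 FPKM after mock treatment. Groups of gst-37 did not overlap in either strain, with log2 fold changes of 2.69 ± 0.26 in lin-52 and 1.86 ± 0.26 in N2 (limma adjusted p = 2.40e-06 and 3.92e-05), but the size depended on the constant added before taking logs and ran between 2.01 and 4.12 in lin-52 and between 1.39 and 2.67 in N2 over the alternatives tried.

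gst-44 followed the same direction at a low level. It was at 1.94, 1.55 and 1.96 FPKM in lin-52 UV and 1.14, 0.668 and 0.777 FPKM in lin-52 mock, and at 2.74, 2.15 and 2.11 FPKM in N2 UV and 0.312, 0.339 and 0.474 FPKM in N2 mock. Its log2 fold change was 0.78 ± 0.18 in lin-52 and 1.69 ± 0.18 in N2 (limma adjusted p = 0.00235 and 3.96e-06). With another added constant these values lay between 0.60 and 1.02 in lin-52 and between 1.27 and 2.36 in N2.

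At middle levels, gst-22 was at 11.3, 10.2 and 10.8 FPKM in lin-52 UV and 4.27, 5.05 and 5.36 FPKM in lin-52 mock, and at 14.4, 12.8 and 15.2 FPKM in N2 UV and 5.47, 4.80 and 4.11 FPKM in N2 mock. UV and mock libraries of gst-22 did not overlap in either strain, with log2 fold changes of 1.07 ± 0.11 in lin-52 and 1.47 ± 0.11 in N2 (limma adjusted p = 4.33e-06 and 1.77e-07). The kappa class gene gstk-2 also rose in both strains, by 0.72 ± 0.11 in lin-52 and 1.1 ± 0.11 in N2, as did gst-23, by 0.72 ± 0.22 and by 0.57 ± 0.22, although the call of gst-23 was lost in N2 without N2 UV 1, N2 UV 3 or N2 mock 4 and in lin-52 without lin-52 UV 4. The abundant gst-5 moved little but regularly. It was at 250, 243 and 242 FPKM in lin-52 UV and 211, 217 and 208 FPKM in lin-52 mock, and at 238, 223 and 231 FPKM in N2 UV and 214, 205 and 207 FPKM in N2 mock. No UV library of gst-5 fell within the mock range of its strain (log2 fold change 0.21 ± 0.03 in lin-52 and 0.15 ± 0.03 in N2, limma adjusted p = 0.000165 and 0.00187).

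Genes outside the tandem clusters that were lower after UV in both strains included gst-10, gst-11, gst-42, gst-43, gsto-1 and gst-1. gst-10, whose enzyme conjugates a product of lipid peroxidation, changed by -0.95 ± 0.12 in lin-52 and -1.31 ± 0.12 in N2, with 72.9 to 95.9 FPKM in lin-52 UV and 67.9 to 79.0 FPKM in N2 UV, against 146 to 191 FPKM in lin-52 mock and 167 to 192 FPKM in N2 mock. The gst-11 change was -0.85 ± 0.10 in lin-52 and -1.08 ± 0.10 in N2. gst-42, the counterpart of maleylacetoacetate isomerase of tyrosine breakdown, changed by -0.41 ± 0.11 in lin-52 and -0.70 ± 0.11 in N2, and the omega class gene gsto-1 by -0.32 ± 0.08 and -0.58 ± 0.08. In gst-43 the change was -0.30 ± 0.08 in lin-52 and -0.51 ± 0.08 in N2. gst-1 changed by -0.13 ± 0.05 in lin-52 and -0.36 ± 0.05 in N2 (limma adjusted p = 0.0263 and 2.09e-05), and its call in lin-52 was lost under 9 of 23 alternatives, among them leaving out lin-52 UV 2, lin-52 UV 4, lin-52 mock 2 or lin-52 mock 4 (adjusted p up to 0.237).

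gst-4, the gene most used as a fluorescent reporter of SKN-1 activity, was not called after UV in either strain. It stood at 73.4, 85.3 and 89.7 FPKM in lin-52 UV and 82.8, 64.7 and 79.6 FPKM in lin-52 mock, and at 68.9, 54.6 and 68.1 FPKM in N2 UV and 84.3, 72.0 and 64.5 FPKM in N2 mock. UV and mock values overlapped in both strains. The log2 fold change was 0.13 with a 95% interval of -0.15 to 0.41 in lin-52, and -0.20 with an interval of -0.48 to 0.08 in N2. The gst-4 model shares 65 exon bases with dhs-12 on the same strand, so part of its reads may belong to either gene. The members called in neither strain also included the abundant gst-13, with a log2 fold change of -0.10 in each strain.

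**Figure D2:**
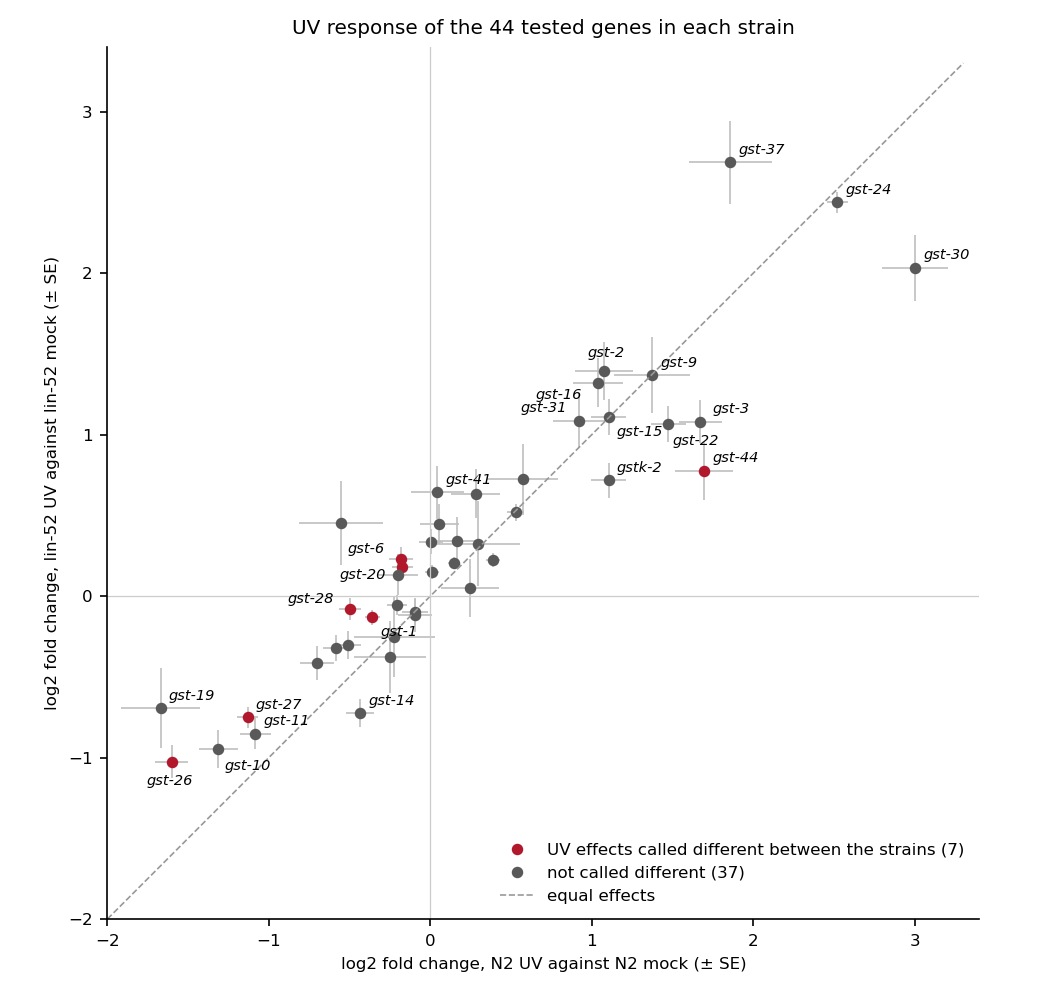
Log2 fold change after UV in lin-52 (vertical axis) and in N2 (horizontal axis) for the 44 tested members, with bars of 1 SE and a dashed line where the effects are equal. Red points mark the 7 genes whose UV effects were called different between the strains, 6 of them above the line and gst-44 below it.

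Of the 49 members, 26 lie on chromosome II, 9 on V, 5 on IV, 4 on III, 3 on X and 2 on I (annotation of Ensembl 115, WBcel235). In 4 tandem clusters, each with neighbours no more than 10 kb apart, 25 members stand side by side. The cluster at chrII:13608154-13630887 holds 9 genes, all on the minus strand, of which gst-17 and gst-18 were under 1 FPKM. Of the 7 tested genes, 5 were called higher and 2 lower after UV in lin-52, and 4 higher and 3 lower in N2.

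In that cluster gst-20 lies next to gst-24. gst-20 was at 194, 240 and 236 FPKM in lin-52 UV and 198, 193 and 196 FPKM in lin-52 mock, and at 173, 163 and 162 FPKM in N2 UV and 190, 187 and 186 FPKM in N2 mock. While gst-24 rose more than 5-fold in each strain, gst-20 changed by 0.18 ± 0.07 in lin-52 and by -0.17 ± 0.07 in N2 (limma adjusted p = 0.0297 and 0.0336), small changes of opposite sign that were each lost under some alternatives, with adjusted p up to 0.126 in lin-52 and 0.181 in N2. On the other side of gst-24, gst-15 was at 22.6, 24.4 and 25.9 FPKM in lin-52 UV and 12.8, 10.4 and 9.898 FPKM in lin-52 mock, and at 24.8, 32.2 and 29.6 FPKM in N2 UV and 11.998, 13.9 and 13.5 FPKM in N2 mock. UV and mock values of gst-15 did not overlap, and the log2 fold change was 1.11 ± 0.11 in lin-52 and 1.1 ± 0.11 in N2.

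Next in line, gst-14 went the other way, with 10.1, 10.2 and 10.2 FPKM in lin-52 UV and 17.0, 16.3 and 18.1 FPKM in lin-52 mock, and 7.51, 6.37 and 8.47 FPKM in N2 UV and 10.4, 10.4 and 9.78 FPKM in N2 mock. It was lower after UV in both strains, with log2 fold changes of -0.72 ± 0.09 in lin-52 and -0.43 ± 0.09 in N2 (limma adjusted p = 1.45e-05 and 0.000673). gst-12 was at 37.3, 37.2 and 36.2 FPKM in lin-52 UV and 32.8, 29.9 and 32.1 FPKM in lin-52 mock, and at 29.1, 29.4 and 29.5 FPKM in N2 UV and 23.1, 21.7 and 22.2 FPKM in N2 mock. Libraries of gst-12 hardly varied within a group, and it rose by 0.22 ± 0.04 in lin-52 and 0.39 ± 0.04 in N2 (limma adjusted p = 0.00072 and 6.35e-06).

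The last tested genes of the cluster again split. gst-16 was at 14.2, 17.997 and 14.9 FPKM in lin-52 UV and 5.94, 6.00 and 5.91 FPKM in lin-52 mock, and at 9.84, 14.98 and 11.4 FPKM in N2 UV and 4.603, 5.52 and 6.68 FPKM in N2 mock, which gave 1.32 ± 0.15 in lin-52 and 1.04 ± 0.15 in N2. gst-19 was at 1.86, 2.28 and 2.48 FPKM in lin-52 UV and 3.37, 4.29 and 3.99 FPKM in lin-52 mock, and at 2.52, 0.787 and 1.21 FPKM in N2 UV and 5.96, 5.11 and 5.42 FPKM in N2 mock. UV values of gst-16 were above, and those of gst-19 below, the mock values of the same strain. The change of gst-19 was -0.70 ± 0.25 in lin-52 and -1.67 ± 0.25 in N2 (limma adjusted p = 0.0264 and 6.91e-05), and its call in lin-52 was lost without lin-52 UV 2, lin-52 mock 3 or lin-52 mock 4 (adjusted p up to 0.0872).

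A second cluster of 9 genes, chrII:15163817-15185389, had 3 genes called higher after UV and 2 lower in lin-52, and 2 higher and 3 lower in N2. These counts, too, are to be read against the shares of all tested genes given for the first cluster. The first gene, gst-26, was at 47.6, 68.1 and 59.8 FPKM in lin-52 UV and 126, 106 and 124 FPKM in lin-52 mock, and at 39.4, 37.9 and 38.9 FPKM in N2 UV and 121, 118 and 117 FPKM in N2 mock. The neighbouring gst-27 was at 99.5, 115 and 124 FPKM in lin-52 UV and 201, 182 and 186 FPKM in lin-52 mock, and at 86.6, 88.9 and 90.6 FPKM in N2 UV and 199, 194 and 191 FPKM in N2 mock. In both genes all UV libraries were below all mock libraries, and the log2 fold change was -1.03 ± 0.10 in lin-52 and -1.60 ± 0.10 in N2 for gst-26 and -0.75 ± 0.07 in lin-52 and -1.13 ± 0.07 in N2 for gst-27.

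The third gene of this cluster, gst-28, was at 39.9, 49.2 and 47.3 FPKM in lin-52 UV and 47.5, 50.0 and 46.5 FPKM in lin-52 mock, and at 36.2, 39.2 and 37.2 FPKM in N2 UV and 51.6, 54.3 and 53.4 FPKM in N2 mock. Its UV and mock values overlapped in lin-52 (log2 fold change -0.08 ± 0.07, limma adjusted p = 0.308) but not in N2 (-0.50 ± 0.07, limma adjusted p = 3.96e-05). Further along, gst-31 was at 8.45, 8.66 and 9.01 FPKM in lin-52 UV and 4.91, 3.53 and 3.23 FPKM in lin-52 mock, and at 8.69, 7.13 and 9.30 FPKM in N2 UV and 3.77, 3.59 and 5.30 FPKM in N2 mock. It rose by 1.09 ± 0.16 in lin-52 and 0.92 ± 0.16 in N2, and its neighbour gst-39 rose by 0.52 ± 0.05 and by 0.53 ± 0.05. gst-35 was called higher in lin-52 only (0.63 ± 0.15, limma adjusted p = 0.00317), with 0.28 ± 0.15 in N2 (limma adjusted p = 0.118), and its interaction was not called. The low members gst-29, gst-32 and gst-34, all under 5 FPKM in every library, were called in neither strain.

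The remaining clusters were smaller. In chrII:4879891-4893573, gst-9 was at 7.70, 7.26 and 4.71 FPKM in lin-52 UV and 1.90, 3.21 and 1.67 FPKM in lin-52 mock, and at 6.47, 6.82 and 6.69 FPKM in N2 UV and 2.62, 1.57 and 2.76 FPKM in N2 mock. All UV libraries of gst-9 were above all mock libraries, with a log2 fold change of 1.37 ± 0.24 in each strain. In chrIV:10139380-10143099, gst-3 was at 21.3, 15.7 and 16.8 FPKM in lin-52 UV and 8.28, 9.33 and 7.02 FPKM in lin-52 mock, and at 25.5, 22.8 and 27.3 FPKM in N2 UV and 8.20, 6.47 and 8.09 FPKM in N2 mock. Its neighbour gst-2 was at 7.995, 7.80 and 7.29 FPKM in lin-52 UV and 1.71, 3.73 and 2.75 FPKM in lin-52 mock, and at 6.39, 6.23 and 6.98 FPKM in N2 UV and 2.63, 2.91 and 2.96 FPKM in N2 mock. Both genes were higher in every UV library than in every mock library, gst-3 by 1.08 ± 0.13 in lin-52 and 1.67 ± 0.13 in N2 and gst-2 by 1.39 ± 0.18 in lin-52 and 1.08 ± 0.18 in N2. The third gene there is gst-4, on the opposite strand and called in neither strain.

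**Figure D3:**
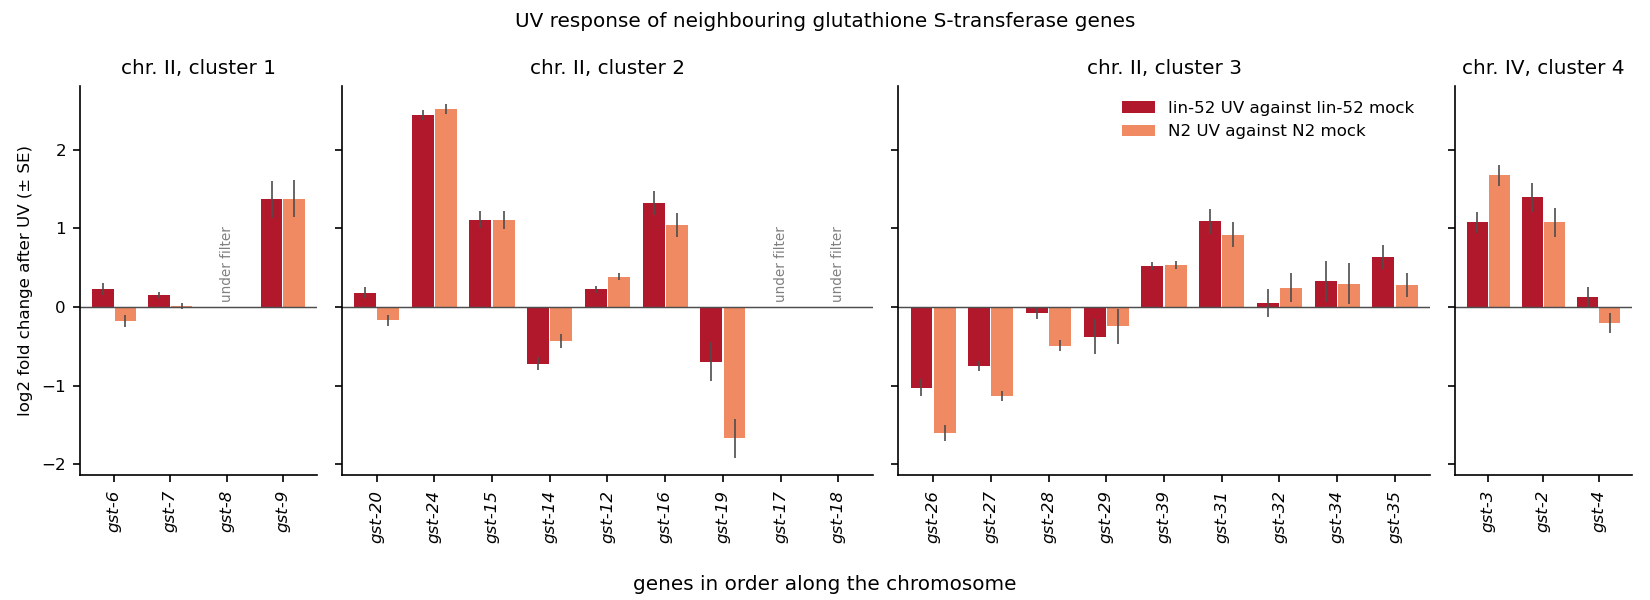
Log2 fold change after UV with bars of 1 SE for the genes of the 4 tandem clusters, in order along the chromosome, with lin-52 in red and N2 in orange, and 3 genes under 1 FPKM left blank. Adjacent genes can differ in direction, as gst-15 (1.11 in lin-52) and gst-14 (-0.72 in lin-52) do.

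Few of these genes were called between the strains without UV. With mock treatment, 2 of the 44 tested members were called higher in lin-52 and 0 were called lower, against 3.59% and 1.74% of all tested genes. At an unadjusted limma p below 0.05 there were 4 higher and 2 lower, beside 1071 higher and 1269 lower of all 12913 tested genes. Both called genes lie in the cluster on chromosome II that also holds gst-24, next to each other, and the values of their libraries are given above. gst-14 was at 16.3 FPKM or more in lin-52 mock and at 10.4 FPKM or less in N2 mock, a log2 fold change of 0.72 ± 0.09 (limma adjusted p = 0.000258). gst-12 was at 29.9 FPKM or more in lin-52 mock and at 23.1 FPKM or less in N2 mock, a log2 fold change of 0.49 ± 0.04 (limma adjusted p = 2.11e-05). Both calls held under all 23 alternatives tried.

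After UV more members differed between the strains, mostly towards higher levels in lin-52. Here 14 of 44 were higher and 4 lower in lin-52 UV than in N2 UV, against 13% and 15.2% of all tested genes, and the median log2 fold change was 0.22 beside -0.02 over all tested genes. The groups of the strains did not overlap for 52.3% of members after UV, against 42.2% of all tested genes. With mock treatment these shares were 25.0% and 24.3%. The 14 higher genes were gst-1, gst-4, gst-6, gst-7, gst-12, gst-14, gst-20, gst-26, gst-27, gst-28, gst-38, gst-41, gstk-1 and gsto-1. The 4 lower genes were gst-3, gst-22, gst-30 and gstk-2. Of the 18 calls 10 held under every alternative. The call of gstk-1, whose groups overlapped, was lost under 12 of 23 alternatives. Those of gst-4 and gstk-2 were lost under 9, that of gsto-1 under 5 and that of gst-28 under 4. The number of lower calls was 1 without lin-52 UV 3, 0 without lin-52 UV 4, 2 without N2 UV 2 and 1 without N2 UV 3, so it rested on single libraries. The number of higher calls ran between 10 and 17 when any 1 library was left out.

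The largest difference was that of gst-41, at 19.1, 19.1 and 21.04 FPKM in lin-52 UV and 10.5, 8.70 and 12.63 FPKM in N2 UV. The mock groups of gst-41 overlapped, with 14.8, 10.4 and 12.4 FPKM in lin-52 and 12.4, 10.3 and 8.20 FPKM in N2. After UV lin-52 was higher by 0.88 ± 0.16 (limma adjusted p = 0.00251). gst-38 was at 28.002, 32.6 and 32.6 FPKM in lin-52 UV and 22.5, 22.1 and 23.4 FPKM in N2 UV, and at 26.2, 21.7 and 25.6 FPKM in lin-52 mock and 22.4, 22.5 and 22.9 FPKM in N2 mock. Only the UV groups of gst-38 were apart, and the difference there was 0.44 ± 0.08 (limma adjusted p = 0.00148). In the groups with values given above, lin-52 UV exceeded N2 UV by 0.57 ± 0.10 for gst-26, 0.43 ± 0.09 for gst-14, 0.42 ± 0.07 for gst-20 and 0.32 ± 0.04 for gst-12, each with groups that did not overlap.

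The abundant gst-7, in the cluster with gst-9, was at 158, 172 and 177 FPKM in lin-52 UV and 140, 137 and 140 FPKM in N2 UV, and at 156, 149 and 151 FPKM in lin-52 mock and 138, 141 and 135 FPKM in N2 mock. Within each treatment every lin-52 library of gst-7 was above every N2 library, and the strain difference was 0.28 ± 0.04 after UV (limma adjusted p = 0.000733) and 0.14 ± 0.04 without UV (limma adjusted p = 0.0933, not called). Its neighbour gst-6 was at 79.7, 99.1 and 101 FPKM in lin-52 UV and 70.6, 72.1 and 71.0 FPKM in N2 UV, and at 77.7, 79.6 and 80.0 FPKM in lin-52 mock and 79.8, 84.9 and 77.7 FPKM in N2 mock. The UV groups of gst-6 were apart by 0.38 ± 0.07 (limma adjusted p = 0.00313) and the mock groups overlapped. In the opposite direction, lin-52 UV was below N2 UV, with log2 fold changes of -0.73 ± 0.20 for gst-30, -0.49 ± 0.13 for gst-3 and -0.38 ± 0.11 for gst-22 (limma adjusted p = 0.0203, 0.0187 and 0.024), and each of these calls was lost under 4 to 6 alternatives.

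**Figure D4:**
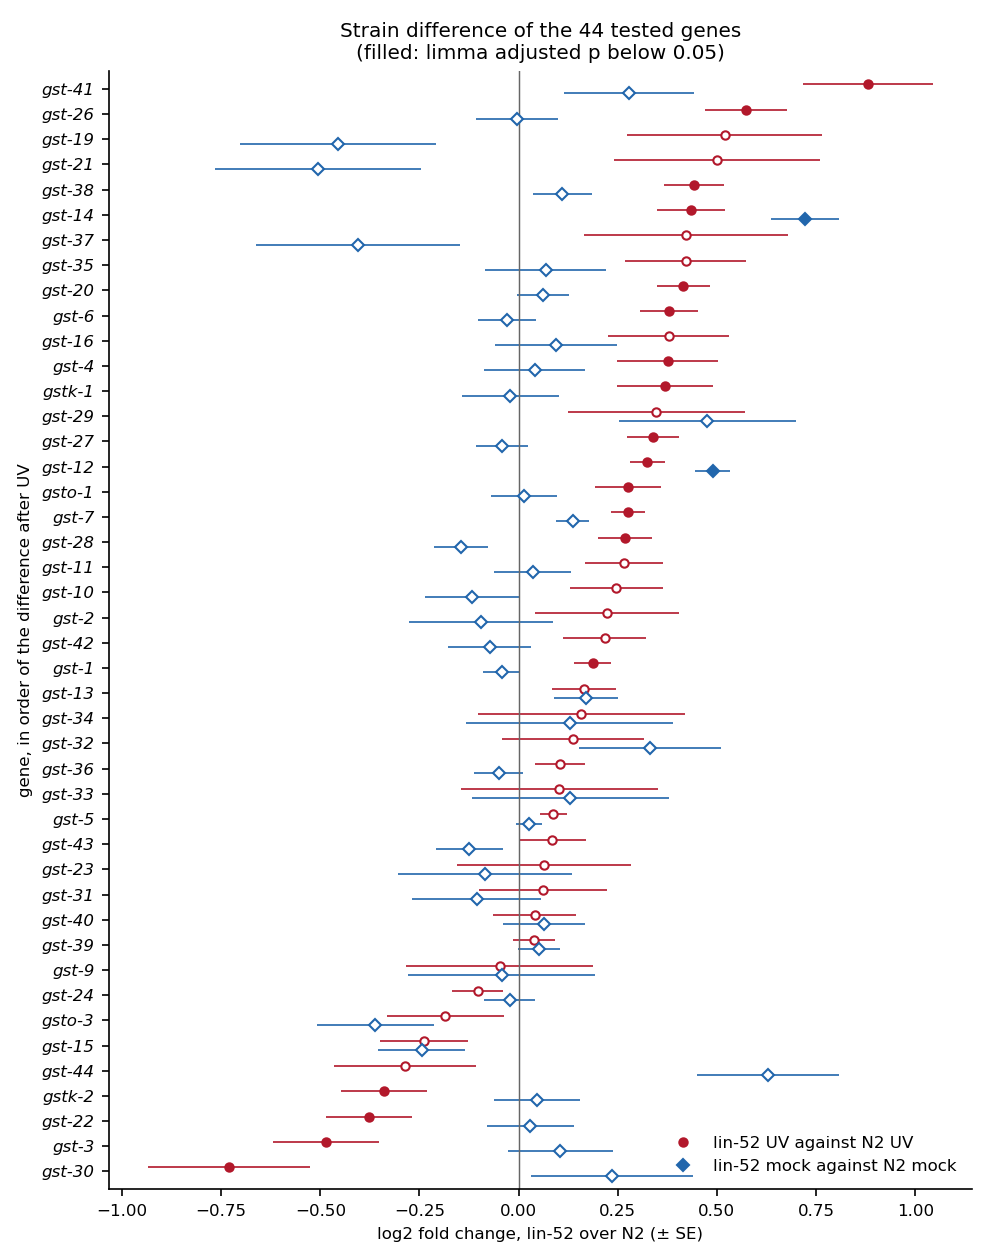
Log2 fold change of lin-52 over N2 for the 44 tested members, after UV (red circles) and without UV (blue diamonds), with bars of 1 SE and filled symbols for calls at a limma adjusted p below 0.05. After UV 14 genes are called above 0 and 4 below, and without UV only gst-12 and gst-14 are called.

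Whether the UV effect itself differed between the strains was tested as an interaction, the UV effect in lin-52 minus the UV effect in N2. It was called for 7 of 44 members, 6 higher and 1 lower, against 5.44% and 6.2% of all tested genes, and its median was 0.17 beside 0.00 over all tested genes. The higher ones were gst-26 (0.58 ± 0.15), gst-28 (0.41 ± 0.10), gst-6 (0.41 ± 0.10), gst-27 (0.38 ± 0.09), gst-20 (0.35 ± 0.09) and gst-1 (0.23 ± 0.07), with limma adjusted p between 0.0211 and 0.0437. In 4 of these, gst-1, gst-26, gst-27 and gst-28, the level was lower after UV in N2 and less so, or without a call, in lin-52. The other 2, gst-6 and gst-20, were called lower after UV in N2 and higher in lin-52. The call of gst-6 in N2 (-0.18 ± 0.07, limma adjusted p = 0.0439) was lost under 13 of 23 alternatives, with adjusted p up to 0.209. Its call in lin-52 (0.23 ± 0.07, limma adjusted p = 0.0162) was lost under 3 of 23, and UV and mock values overlapped there. The limits of the gst-20 calls are given above. The lower one was gst-44 (-0.92 ± 0.25, limma adjusted p = 0.0397), which rose in both strains and more in N2.

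These interaction calls were fragile, and none of the 7 held under all alternatives, although none changed sign. The count of higher calls was 11 without lin-52 UV 2, 2 without lin-52 UV 3, 0 without lin-52 UV 4, 1 without N2 UV 2, 2 without N2 UV 3, 3 without lin-52 mock 2, 2 without lin-52 mock 3 or lin-52 mock 4, 1 without N2 mock 1, 0 without N2 mock 2 and 3 without N2 mock 4. The count of lower calls was 3 without lin-52 UV 2 or lin-52 mock 3, and 0 without lin-52 UV 3, lin-52 UV 4, N2 UV 3, lin-52 mock 2, N2 mock 1 or N2 mock 2. gst-28 kept its call most often, losing it only without lin-52 UV 4 and without N2 mock 2 (adjusted p up to 0.0557).

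The library lin-52 UV 2 stood apart from the others in these genes. It was the lowest of its group in 25 of 44 members, and 40.5% of all tested genes were lowest there. Its median absolute log2 deviation from the mean of the other 2 libraries was 0.243 over the members, against 0.0818 to 0.131 in the other 11 libraries, and 0.115 over all tested genes, against 0.0762 to 0.0991. Without it the interaction was called for 14 members, including all 7 named above, and for 2186 of all tested genes, against 1503 with it. The 7 further members were gst-3, gst-7, gst-10, gst-30, gst-38, gst-42 and gstk-1.

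Calls that differed between the strains without a called interaction do not show a difference. gst-7, gst-35, gst-38, gst-41 and gstk-1 were called higher after UV in lin-52 and not called in N2, but the interaction of these 5 genes was not called (limma adjusted p between 0.0673 and 0.325). The same holds for gst-36, called lower in N2 only, with an interaction of 0.15 and a 95% interval of -0.04 to 0.35. The UV effect was more positive in lin-52 than in N2 for 29 of 44 members, or 65.9%, against 50.1% of all tested genes. It was smaller in size in lin-52 for 23 members, or 52.3%, against 69.4% of all tested genes.

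Genes that supply, use or control the same chemistry were described alongside from 5 lists with 83 genes, of which 81 were found in the table and 76 tested. After UV, 24 of 76 were higher and 33 lower in lin-52, and 27 higher and 36 lower in N2, to be read against the shares of all tested genes given above for each comparison. The 22 tested genes of glutathione synthesis, recycling and breakdown included 6 higher and 14 lower in lin-52, and 5 higher and 15 lower in N2. This list also holds genes of methionine metabolism and of NADPH supply, so these counts do not describe glutathione synthesis alone. Among their largest changes were those of mtrr-1 (-1.36 ± 0.08 in lin-52 and -1.47 ± 0.08 in N2), which reactivates methionine synthase, and sams-1 (-1.18 ± 0.05 and -1.32 ± 0.05), which makes S-adenosylmethionine. Large changes were also those of metr-1 (-1.42 ± 0.08 and -1.03 ± 0.08), the methionine synthase itself, and idh-1 (-0.92 ± 0.06 and -1.32 ± 0.06), an isocitrate dehydrogenase that makes NADPH. From mock to UV the mean of T03D8.6 fell from 57.5 to 27.5 FPKM in lin-52 and from 56.4 to 25.4 FPKM in N2. Other genes of this list rose. The mean of cth-1 went from 80.5 to 144 FPKM in lin-52 and from 73.2 to 150 FPKM in N2. That of gcs-1 went from 65.3 to 76.9 FPKM in lin-52 and from 65.9 to 85.8 FPKM in N2.

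Of 21 peroxidases, reductases and glutaredoxins 2 were higher and 12 lower after UV in lin-52, and 3 higher and 14 lower in N2. The mitochondrial thioredoxin reductase gene trxr-2 changed by -0.80 ± 0.09 in lin-52 and -1.13 ± 0.09 in N2, and the glutathione peroxidase gene gpx-5 by -0.63 ± 0.06 and -0.98 ± 0.06. Among 8 ABC transporters of the MRP type, the kind that exports glutathione conjugates, 5 were higher and 1 lower in lin-52, and 6 higher and 1 lower in N2. mrp-2 rose most, by 1.67 ± 0.05 in lin-52 and 2.07 ± 0.05 in N2, and mrp-6 rose by 0.64 ± 0.07 and 1.07 ± 0.07. Of 15 regulators of gst transcription 9 were higher and 2 lower in lin-52, and 12 higher and 1 lower in N2. They included elt-2, the GATA factor of the gut (0.70 ± 0.07 in lin-52 and 0.77 ± 0.07 in N2), skn-1 itself (0.51 ± 0.03 and 0.63 ± 0.03) and wdr-23, which targets SKN-1 for degradation (0.67 ± 0.05 and 0.77 ± 0.05). Of 10 further genes whose proteins have a glutathione S-transferase fold, 2 were higher and 4 lower in lin-52, and 1 higher and 5 lower in N2, with cdr-4, a cadmium-responsive gene, higher by 0.96 ± 0.04 in lin-52 and 1.17 ± 0.04 in N2.

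Between the mock-treated strains, 2 of the 76 genes were called higher in lin-52 and 1 was called lower, namely mrp-7 (0.37 ± 0.05), cdr-4 (0.16 ± 0.04) and djr-1.1 (-0.22 ± 0.05). Single libraries decided this count, since it was 1 higher without lin-52 mock 2, N2 mock 1 or N2 mock 4, 0 lower without lin-52 mock 2, lin-52 mock 4 or N2 mock 2, and 2 lower without lin-52 UV 2 or lin-52 UV 3. After UV 14 of 76 were higher and 17 lower in lin-52 than in N2. The glutathione peroxidase gene gpx-3 was higher by 0.68 ± 0.09 and hmt-1, an ABC transporter that protects against heavy metals, by 0.62 ± 0.07, while mrp-2 was lower (-0.39 ± 0.05). Of the 15 regulators 0 were higher and 6 lower by limma's adjusted p, with hsf-1, the heat shock factor, lowest at -0.33 ± 0.05. At an unadjusted p below 0.05 limma had 0 regulators higher and 11 lower, beside 2353 higher and 2768 lower of all 12913 tested genes. The 14 higher calls became 6 without lin-52 UV 3, 5 without lin-52 UV 4 and 6 without N2 UV 2, and the 17 lower calls became 8 without lin-52 UV 3, 8 without N2 UV 2 and 10 without N2 UV 3. The interaction was called for 15 of the 76 genes, 8 higher, gpx-3 (0.81 ± 0.12) with the largest value, and 7 lower, among them mrp-2 (-0.40 ± 0.07). Its higher count was 5 without lin-52 UV 4, and its lower count ran between 1 and 11 when any 1 library was left out, with 11 without lin-52 UV 2 and 1 without lin-52 UV 4 or N2 UV 2.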

How the data were processed

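The authors depleted ribosomal RNA from total RNA of L1 larvae, prepared stranded paired-end libraries, aligned reads with Tophat in the QuickNGS workflow on Ensembl 85 gene models and computed FPKM with Cufflinks. The deposited FPKM table listed 46245 genes. Names, biotypes and positions came from Ensembl 115 (WBcel235), which held 45990 of them. The genome build, the strand setting of the counting and the reads per library are not given in the sources used here, so overlapping genes may share reads. RNA of 4 replicates per condition was checked by the authors and 3 were sequenced. FPKM are not counts. For their own comparisons the authors used DESeq2. A test on the log scale took its place here.

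Libraries were brought to a common scale with median-ratio factors between 0.969 and 1.049, computed on protein-coding genes listed above 0 throughout. Those averaging 1 FPKM or more (12913) were taken to log2(FPKM + 0.5), which understates changes of low genes. Fits used limma 3.58.1 in R 4.3.3 with 4 group means and an intensity trend (prior df 3.28), two-sided, with Benjamini-Hochberg adjustment over all tested genes of a comparison and calls at an adjusted p below 0.05. The median SE was 0.0838 for a comparison of 2 groups and 0.118 for the interaction. P-values measure the spread between these libraries. The fit was also run on simulated data with independent libraries and genes changed in lin-52 mock only. It therefore did not test UV effects, the interaction or a deviating library.

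The members and the 5 lists of related genes were chosen with earlier results of these data known. By rule, values per library were given for the 5 most abundant members and, in each comparison, for the 8 called members with the largest log2 fold change, and up to 4 called genes per related list and comparison could be named. The values of gst-4 were given beyond that rule, as those of a common reporter gene. Those of cth-1 and gcs-1 were also given beyond it, as genes of their list that rose after UV. Libraries were also analysed without scaling, scaled to an equal sum or quantile normalised, with other added constants (0.1 and 1), without a filter or with one at 5 FPKM, without the trend, with the replicate number as a block, with zeros as missing, with only the 6 libraries of a comparison, and with each library left out. No sequences were printed, since no sequence table was used here. Figures were drawn with matplotlib 3.10.9 in Python 3.11.15 with numpy 2.4.6, pandas 2.3.3 and scipy 1.17.1.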

Additional observations from a re-analysis of the deposited data

Results flagged for a closer look

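The response to UV was called different between the strains in 7 of 44 glutathione S-transferase genes by a direct test (limma interaction, adjusted over all tested genes). These were 15.9% of members, against 11.6% of all tested genes. With 1 library left out, the count ran between 0 and 11 higher and between 0 and 3 lower. The UV effect in lin-52 minus the UV effect in N2 was 0.23 for gst-1, 0.41 for gst-6, 0.35 for gst-20, 0.58 for gst-26, 0.38 for gst-27, 0.41 for gst-28 and -0.92 for gst-44 on the log2(FPKM + 0.5) scale, with adjusted p between 0.0211 and 0.0437. Each was below an adjusted p of 0.05 with all 12 libraries, and each crossed that line under some alternatives, from 2 of 22 for gst-28 to 14 of 22 for gst-1. Among the 6 with a positive value, gst-26, gst-27 and gst-28 are 3 adjacent genes of 1 tandem cluster on chromosome II.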

How the results depend on the processing

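Over the alternatives no call of a glutathione S-transferase gene changed sign. All 2 calls of lin-52 mock against N2 mock, 10 of 18 of lin-52 UV against N2 UV, 28 of 33 of UV in lin-52, 26 of 30 of UV in N2 and 0 of 7 of the interaction held under every alternative. The low level of several members limits their precision, and the reads behind a value are unknown. The causes of the shifts below were not tested, except that a filter at 5 FPKM leaves fewer members.

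Members called lower in lin-52 UV against N2 UV were 2 with libraries scaled to an equal sum and 0 to 4 when a library was left out. Members called higher in N2 after UV were 10 with the filter at 5 FPKM. For the interaction, higher calls were 2 without the intensity trend and 0 to 11 when a library was left out. Lower calls were 0 with quantile normalization or the filter at 5 FPKM, 2 with an added constant of 1 or zeros as missing, and 0 to 3 when a library was left out.

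Related genes called higher in lin-52 mock against N2 mock were 4 with FPKM as deposited or an equal sum, 1 without the trend or with only the 6 libraries compared, and 1 to 3 when a library was left out. Those called lower were 0 with FPKM as deposited, an equal sum or quantile normalization, and 0 to 2 when a library was left out. In lin-52 UV against N2 UV, higher calls of related genes were 22 with an equal sum, 9 without the trend, 7 with only the 6 libraries, and 5 to 17 when a library was left out. Lower calls were 10 with FPKM as deposited or quantile normalization, 7 with an equal sum, 11 with only the 6 libraries, and 8 to 20 when a library was left out. For the interaction of related genes, lower calls were 3 without the trend, and when a library was left out higher calls were 5 to 10 and lower calls 1 to 11.

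Deviations of libraries with the same replicate number correlated at -0.16 to 0.25 over 13 pairs (median -0.01), 3 of them above 0.1. Those with different numbers correlated at -0.18 to 0.19 over 41 pairs (median -0.01), 5 of them above 0.1. With 3 libraries per group these values cannot show whether the numbers pair libraries. With the replicate block, members called lower in lin-52 UV against N2 UV were 1 and members called higher in the interaction 1. With that replicate block, related genes called in lin-52 mock against N2 mock were 1 higher and 0 lower, related genes called higher in lin-52 UV against N2 UV were 7, and related genes called lower in the interaction were 4.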
